A study of Mus musculus with 10 samples.

Results

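The genes described here encode proteins of the dendritic spine and of the postsynaptic scaffold beneath it, together with synaptic adhesion molecules. The set, in which *Icam5* and *Myo16* were singled out, was chosen by name with earlier results of these data known. It holds 33 of the 22000 genes in the count table. It comprises 14 scaffold genes of the DLG, SHANK, HOMER and DLGAP families, 10 adhesion genes (*Icam5* and the LRRTM, neuroligin and neurexin families), 7 genes acting on actin (*Myo16*, *Kalrn*, *Trio*, *Dbn1*, *Ppp1r9a*, *Ppp1r9b* and *Synpo*) and the kinase genes *Camk2a* and *Camk2b*. All 33 passed the filter on low counts, which kept 14344 genes for testing. RNA of the prefrontal cortex (PFC) was sequenced as 1 library per mouse, from 5 WT and 5 *Zbtb16* KO animals at 7 weeks of age that the labels call male. KO mice came from the B6.C3-Zbtb16lu/J line and were homozygous for the luxoid (lu) allele, a nonsense point mutation of *Zbtb16*, a zinc finger transcription factor. The allele is carried in every cell and from conception, and no other allele or treatment was used. The tissue was taken as a whole, without sorting of cells.

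Dendritic spines are small protrusions of dendrites that receive most excitatory synapses in the cortex. Under the spine membrane, DLG proteins such as PSD-95 hold glutamate receptors, DLGAP proteins link them to SHANK, and HOMER ties SHANK to metabotropic receptors, while actin filaments give the spine its shape. Neurexins on the axon bind neuroligins and LRRTM proteins on the dendrite, and ICAM5 (telencephalin) is a dendritic adhesion molecule of forebrain neurons, best known from filopodia and immature spines.

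Counts per library ranged from 30220122 to 51231439. Levels are given as CPM, counts scaled to a common library size and by TMM factors, which correct for library composition, and 3 counts correspond to 0.0586 to 0.0993 CPM. Member genes had between 180 counts (*Homer3*) and 222401 counts (*Camk2a*) in a library. *Zbtb16* itself was at 79.0 ± 7.23 CPM in WT and 47.4 ± 4.96 CPM in KO mice (SD, n = 5 each), and its log2 fold change was -0.67 (SE 0.06, edgeR adjusted p = 2.8e-05). The library labelled KO mouse 3 held 1 count over 4 Y-linked genes, against 4376 to 8182 in the other libraries, which goes against its label as male, so the calls made by edgeR with all mice are also given without it. *Zbtb16* then had a log2 fold change of -0.62 (adjusted p = 0.00025). Across 8 lists of cell type markers, edgeR called 0 of 43 tested genes, where it called 0.844% of all tested genes. At an unadjusted p under 0.05 there were 13 of them (8 higher and 5 lower in KO), where 10.6% of all tested genes were below it. DESeq2 called 1, *Tac1*, higher in KO. None of these markers was at 0 across all libraries together. The excitatory neuron markers summed to 3437 to 4260 CPM in KO (mean 3913 CPM) and 3628 to 3923 CPM in WT mice (mean 3772 CPM). Astrocyte markers had a mean sum of 1270 CPM in KO and 1143 CPM in WT mice, and interneuron markers 829 and 883 CPM. Ranges of these sums overlapped between the genotypes in all 8 lists, and whether cell composition differed was not tested.

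**Figure D1:**
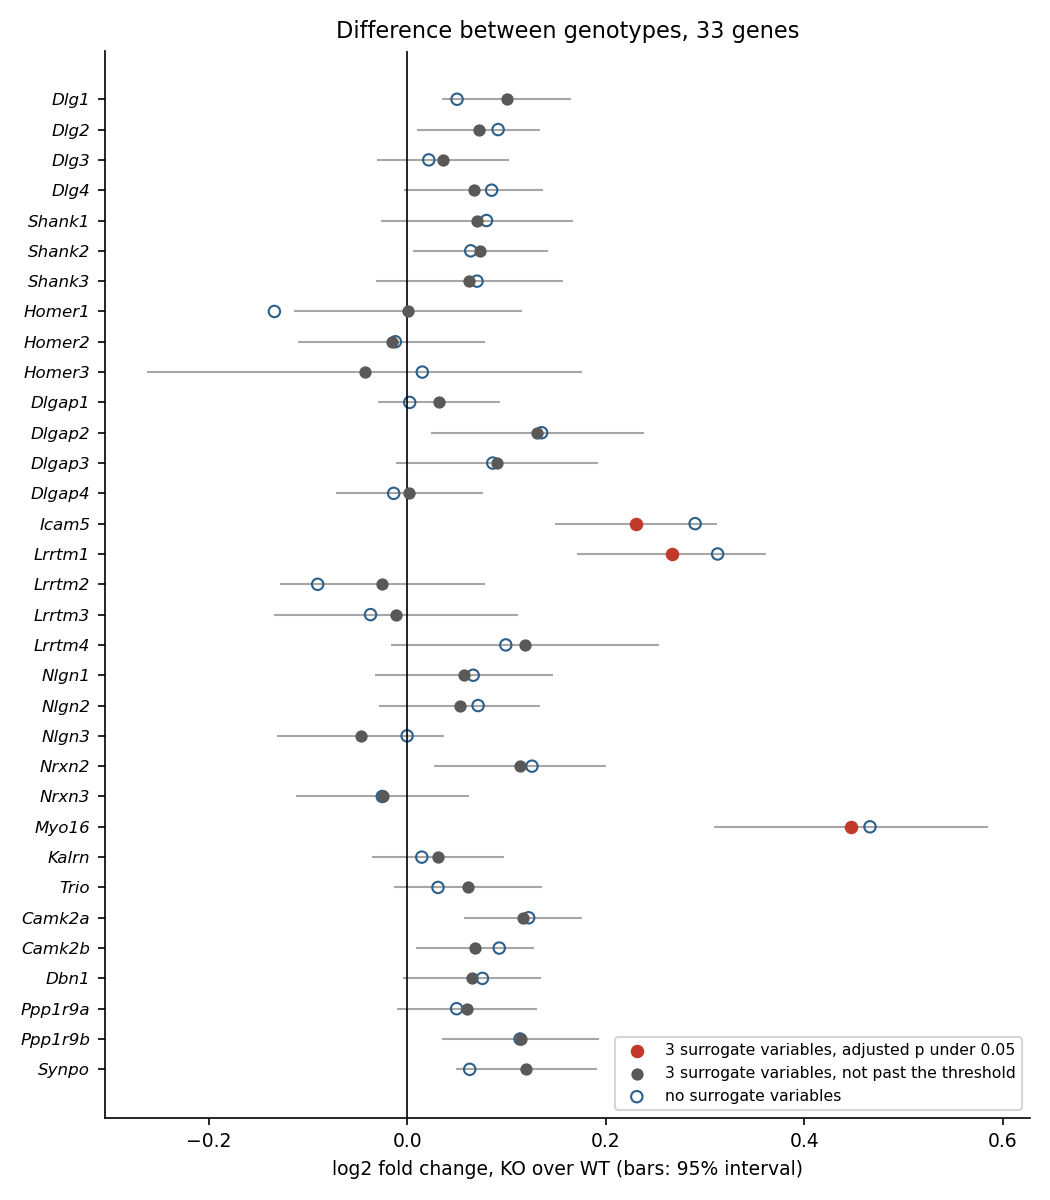
Log2 fold change of KO against WT for each of the 33 genes (horizontal axis, edgeR), grouped by family, with 3 surrogate variables (filled points, 95% confidence intervals as bars, red where called) and without any (open points). *Myo16* (0.45), *Lrrtm1* (0.27) and *Icam5* (0.23) lie farthest above 0, and the open point of *Homer1* lies at -0.13.

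*Icam5*, *Lrrtm1* and *Myo16* were higher in the PFC of KO mice, at 122.2%, 124.2% and 137.8% of their mean WT levels. These were the members that passed an adjusted p of 0.05 (quasi-likelihood test of edgeR, Benjamini-Hochberg adjusted over all tested genes). No DLG, SHANK, HOMER, DLGAP, neuroligin, neurexin, CaMKII or actin-binding member passed it, nor did *Kalrn* or *Trio*. Thus 3 of 33 members (9.09%) were called, all of them higher in KO, where 0.844% of all tested genes were called in either direction and 0.600% were called higher. *Icam5* and *Myo16* were singled out with earlier results of these data known, so this share does not measure how often such genes change. *Icam5*, *Lrrtm1* and *Myo16* were also called by edgeR without surrogate variables, when 0.209% of all genes were. Their adjusted p values were then 0.0484, 0.0378 and 0.0466, close to the threshold. The number of members called was 1 with the replicate number as a block (*Myo16*) and 1 with a striatal marker score as covariate (*Lrrtm1*). It was 0 with limma and 0 in the mice of high RNA integrity alone. In the same order, these fits called 24, 15, 8 and 1 of all tested genes, against 121 in the fit reported. Apart from limma, these alternatives held no surrogate variables. In whole tissue, more cells of a type and more RNA per cell cannot be told apart.

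The promoters of these called genes are given because the genes moved in the same direction. Each sequence is the RefSeq window from 250 bases before to 50 bases after the annotated start (GRCm38.p6), and 25 of the 33 members have an entry. Capitals mark the GC box (GGGCGG on either strand) and the CCAAT box (CCAAT on either strand). The windows lie at chr9:21031788-21032087 on the plus strand for *Icam5*, at chr6:77242227-77242526 on the plus strand for *Lrrtm1* and at chr8:10153661-10153960 on the plus strand for *Myo16*. The *Lrrtm1* window ends before the start of the gene in Gencode M21 (77242689), so RefSeq and Gencode place this start differently.
Icam5: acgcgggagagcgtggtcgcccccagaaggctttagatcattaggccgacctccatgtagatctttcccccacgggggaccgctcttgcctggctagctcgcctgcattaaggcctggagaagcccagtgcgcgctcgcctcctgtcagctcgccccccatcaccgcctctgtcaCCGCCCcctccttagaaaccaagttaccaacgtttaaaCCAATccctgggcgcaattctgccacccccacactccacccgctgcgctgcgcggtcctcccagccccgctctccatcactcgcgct
Lrrtm1: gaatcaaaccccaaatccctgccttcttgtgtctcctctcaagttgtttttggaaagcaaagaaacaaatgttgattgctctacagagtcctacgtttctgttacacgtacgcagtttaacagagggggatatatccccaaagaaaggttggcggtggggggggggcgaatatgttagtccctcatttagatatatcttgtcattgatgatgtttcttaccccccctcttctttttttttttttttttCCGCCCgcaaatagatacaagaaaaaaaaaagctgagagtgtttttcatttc
Myo16: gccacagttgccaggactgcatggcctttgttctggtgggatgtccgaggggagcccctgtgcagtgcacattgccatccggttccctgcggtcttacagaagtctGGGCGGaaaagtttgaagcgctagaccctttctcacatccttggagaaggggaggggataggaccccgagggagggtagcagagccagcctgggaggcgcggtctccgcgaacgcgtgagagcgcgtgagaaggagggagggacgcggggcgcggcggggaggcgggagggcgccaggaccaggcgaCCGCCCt

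The promoters of *Icam5* and *Myo16* were GC-rich, with 63.7% and 66.0% G or C, against a median of 52.7% over all 32851 promoters, and that of *Lrrtm1* was not, with 40.7%. A GC box matched once in *Icam5*, once in *Lrrtm1* and at 2 places in *Myo16*, and 35.7% of all promoters hold at least 1. *Icam5* was the one with a CCAAT box, found in 37.4% of promoters. An E-box (CANNTG) was found once each in *Lrrtm1* and *Myo16*, against 72.3% of promoters, and neither a TATA box (TATAAA, 13.6% of promoters) nor TGACG (20.8%) was found in any of these windows. The searches covered both strands, and the GC and CCAAT boxes marked in capitals did not overlap. Such matches describe letters and are not evidence of binding.

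*Icam5* (ENSMUSG00000032174.5) spans chr9:21032073-21039036 on the plus strand of GRCm38, with 2.95 kb of exons. Its level in WT mice 1 to 5 was 188.9, 171.3, 199.99, 197.6 and 184.8 CPM. In KO mice 1 to 5 it was 208.0, 225.9, 244.6, 224.2 and 249.4 CPM. Every KO mouse was above every WT mouse, and the nearest values were 208.0 in KO mouse 1 and 199.99 in WT mouse 3. The means were 230.4 ± 16.8 CPM in KO and 188.5 ± 11.5 CPM in WT mice, and the log2 fold change was 0.23 (SE 0.04, 95% confidence interval 0.15 to 0.31, edgeR adjusted p = 0.0076). Without KO mouse 3 the log2 fold change was 0.20 and the adjusted p 0.0522, and without KO mouse 4, WT mouse 3 or WT mouse 5 the adjusted p was 0.0555, 0.0737 or 0.0767. *Icam5* lies 27.6 Mb from *Zbtb16* and is the one member on the same chromosome, and whether the mice differed in strain background at *Icam5* was not tested.

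*Lrrtm1* (ENSMUSG00000060780.2) encodes a leucine-rich repeat adhesion protein that binds neurexins and promotes excitatory synapses. It spans chr6:77242689-77257791 on the plus strand, with 3.03 kb of exons. In WT mice 1 to 5 it was at 48.1, 48.9, 51.8, 54.9 and 48.0 CPM. In KO mice 1 to 5 it was at 60.6, 68.2, 63.7, 57.6 and 62.6 CPM. The groups did not overlap, with KO mouse 4 the lowest KO and WT mouse 4 the highest WT mouse. Means were 62.5 ± 3.90 CPM in KO and 50.3 ± 2.98 CPM in WT mice, with a log2 fold change of 0.27 (SE 0.04, 95% confidence interval 0.17 to 0.36, edgeR adjusted p = 0.0080). Without KO mouse 3 the adjusted p was 0.0290, and the call was lost without WT mouse 3 (0.0931) or WT mouse 5 (0.0863).

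*Myo16* (ENSMUSG00000039057.11) encodes an unconventional myosin that links the WAVE actin regulatory complex to phosphoinositide 3-kinase signalling in neurons. It spans chr8:10153911-10634742 on the plus strand, with 7.91 kb of exons. WT mice 1 to 5 were at 45.9, 38.0, 39.7, 39.0 and 43.0 CPM. KO mice 1 to 5 were at 62.1, 48.9, 51.2, 52.8 and 68.5 CPM. The groups did not overlap, and KO mice 1 and 5 stood above the other KO mice, with a coefficient of variation of 14.6% in KO. *Myo16* had the largest change of the members, from 41.1 ± 3.27 CPM in WT to 56.7 ± 8.28 CPM in KO mice, a log2 fold change of 0.45 (SE 0.07, 95% confidence interval 0.31 to 0.58, edgeR adjusted p = 0.0027). It was called in all 10 fits that each left out 1 mouse, with log2 fold changes from 0.33 to 0.53, and without KO mouse 3 the adjusted p was 0.0063.

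**Figure D2:**
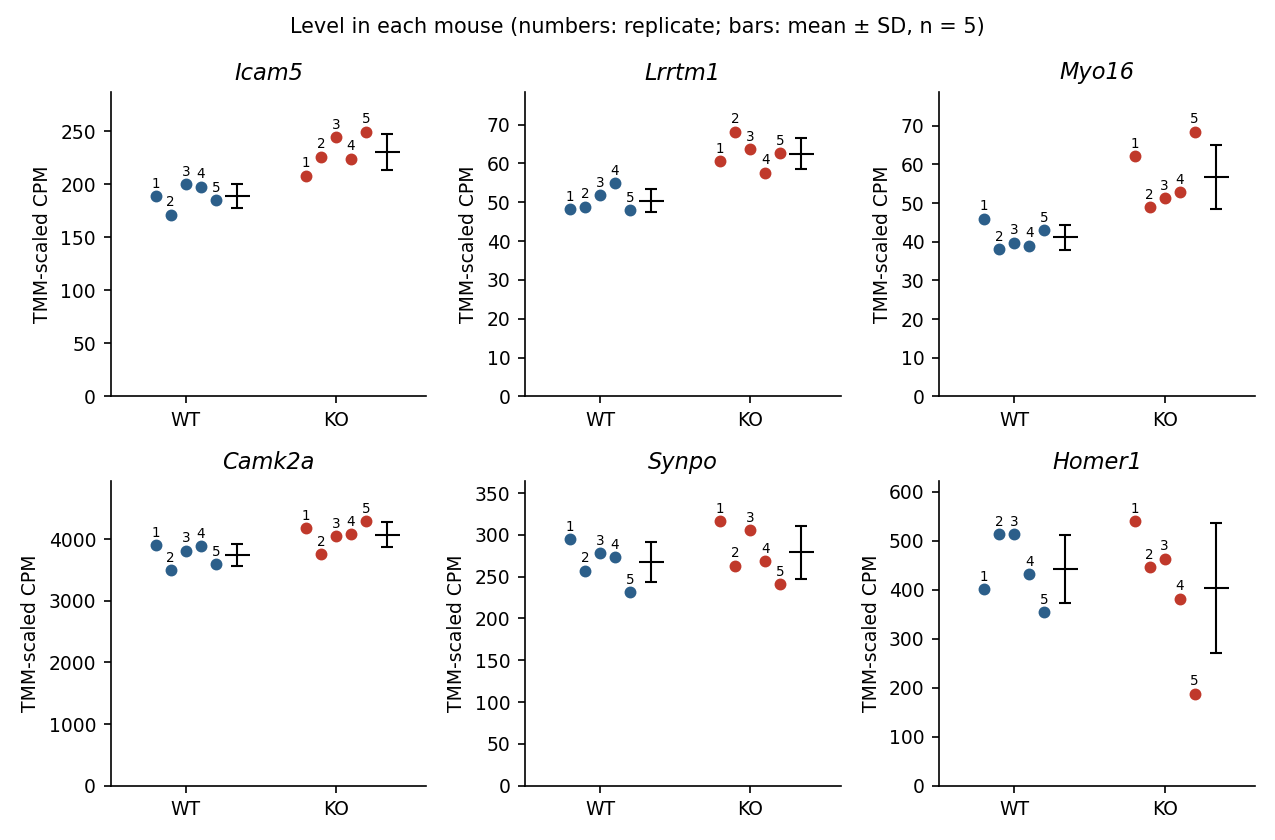
Level of *Icam5*, *Lrrtm1*, *Myo16*, *Camk2a*, *Synpo* and *Homer1* in each mouse (vertical axes, TMM-scaled CPM; numbers are replicates), with the mean and SD of each genotype as bars (n = 5). In the upper panels the lowest KO mouse lies above the highest WT mouse (57.6 against 54.9 CPM for *Lrrtm1*), and in the lower panels the genotypes overlap.

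Levels of these 3 genes did not overlap between the genotypes, and no other member had such a separation (3 of 33, against 1.58% of all tested genes). That share, too, includes *Icam5* and *Myo16*, which were singled out with earlier results known. RNA integrity numbers (RIN) were 9.5 or above in 3 mice and 8.1 to 8.3 in 2 mice of each genotype. In the mice of high RIN, the mean of *Icam5* was 219.4 CPM in KO and 181.7 CPM in WT, and in those of lower RIN it was 247.0 and 198.8 CPM. *Lrrtm1* was at 62.1 and 48.3 CPM in KO and WT mice of high RIN, and at 63.2 and 53.4 CPM in those of lower RIN. The corresponding means of *Myo16* were 54.6 and 42.3 CPM, and 59.9 and 39.4 CPM. Because the levels of these genes did not overlap, the KO mean had to be the higher one in both RIN classes. Whether RIN mattered was not tested by this split. Markers of striatal medium spiny neurons, of which 9 were analysed, summed to 411 to 584 CPM in KO and 369 to 692 CPM in WT mice. WT mice 1 to 4, at 403.2, 410.0, 369.5 and 369.2 CPM, lay below every KO mouse (lowest 410.7 CPM). WT mouse 5, at 691.8 CPM, lay above every KO mouse. Whether the share of striatal tissue differed was not tested. With a score of these markers as a covariate in place of the surrogate variables, *Lrrtm1* was called (adjusted p = 0.0452), and *Icam5* (log2 fold change 0.29, adjusted p = 0.120) and *Myo16* (0.44, adjusted p = 0.115) were not.

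**Figure D3:**
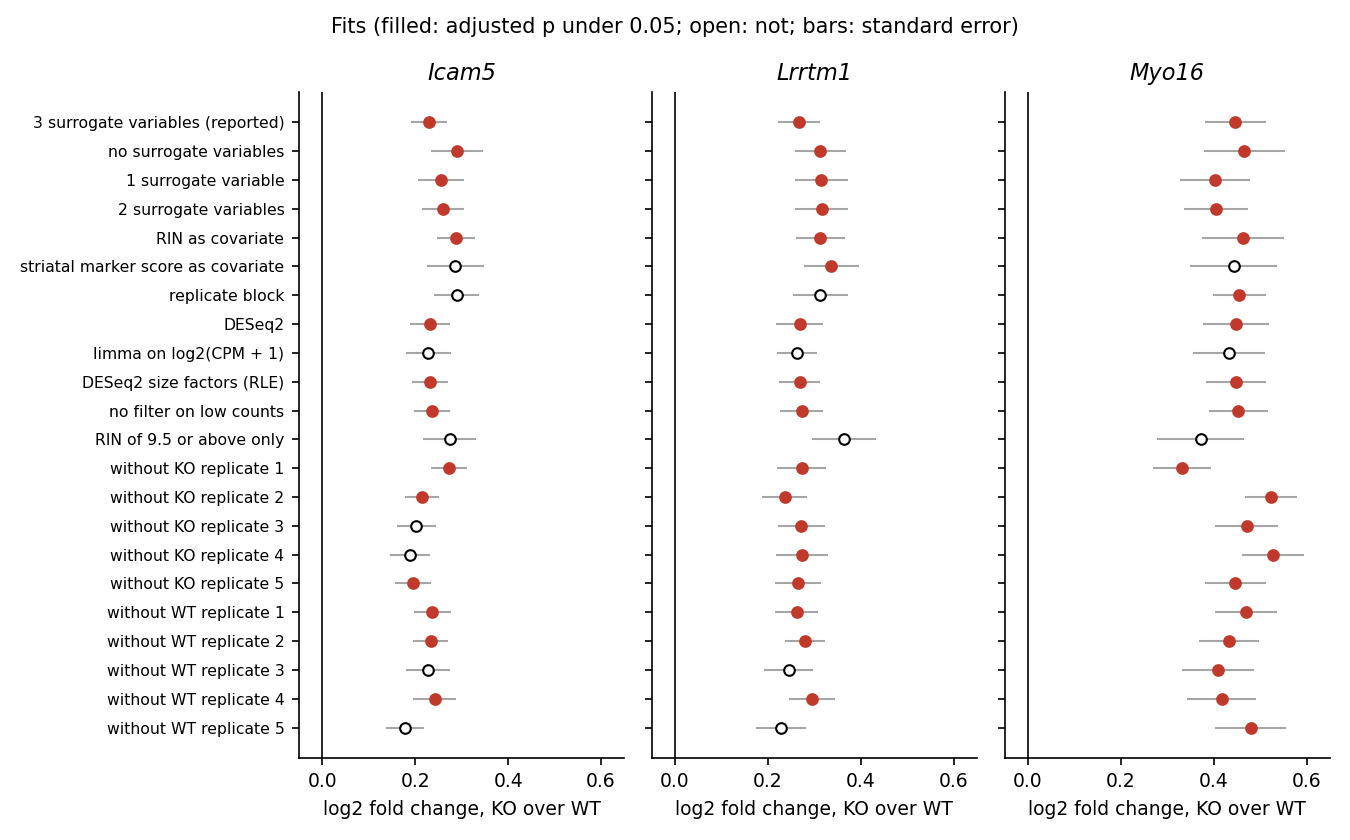
Log2 fold change of *Icam5*, *Lrrtm1* and *Myo16* (horizontal axes, with SE as bars) in the fit reported, in 11 alternatives and in 10 fits that each left out 1 mouse. Filled points have an adjusted p under 0.05 and open ones do not, and the values when leaving out a mouse span 0.18 to 0.27 for *Icam5*, 0.23 to 0.29 for *Lrrtm1* and 0.33 to 0.53 for *Myo16*.

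The scaffold families had small differences, and 0 of their 14 genes passed the test in edgeR or DESeq2, with 4 below an unadjusted p of 0.05. Of all tested genes, 0.844% passed it in edgeR and 10.6% were below the unadjusted threshold. All 4 DLG genes, which anchor receptors and channels at the membrane, had log2 fold changes above 0, from 0.04 to 0.10. *Dlg4*, encoding PSD-95, was at 848.6 ± 40.3 CPM in WT and 900.1 ± 32.4 CPM in KO mice (0.07, adjusted p = 0.493). *Dlg1*, encoding SAP97, was at 227.8 ± 7.95 and 235.9 ± 17.3 CPM (0.10, adjusted p = 0.187). *Dlg2*, encoding PSD-93, was at 535.8 ± 11.2 and 570.8 ± 32.7 CPM (0.07, adjusted p = 0.365). The WT and KO levels of *Dlg3*, encoding SAP102, were 238.9 ± 7.43 and 242.6 ± 8.77 CPM (0.04, adjusted p = 0.752).

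The 3 SHANK genes, whose products form the deeper layer of the scaffold, had log2 fold changes of 0.06 to 0.07. *Shank1* was at 625.0 ± 60.5 CPM in WT and 660.6 ± 35.7 CPM in KO mice (adjusted p = 0.641), *Shank2* at 314.8 ± 18.0 and 329.2 ± 36.4 CPM (adjusted p = 0.423), and *Shank3* at 304.9 ± 18.7 and 320.1 ± 11.6 CPM (adjusted p = 0.687). Among the DLGAP genes, whose products bridge PSD-95 and SHANK, *Dlgap2* had the highest log2 fold change of any scaffold gene, 0.13 (SE 0.05, adjusted p = 0.337), with 89.0 ± 5.01 CPM in WT and 97.7 ± 7.14 CPM in KO mice. *Dlgap3* was at 434.1 ± 31.4 CPM in WT and 460.8 ± 30.8 CPM in KO mice (0.09, adjusted p = 0.538). *Dlgap1* was at 692.1 ± 12.3 and 693.3 ± 32.5 CPM (0.03, adjusted p = 0.767). *Dlgap4* was at 336.8 ± 17.8 and 333.7 ± 29.2 CPM (0.00, adjusted p = 0.989).

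HOMER proteins link SHANK to metabotropic glutamate receptors, and *Homer1* varied most between mice of all members, with coefficients of variation of 33.01% in KO and 15.8% in WT mice. Its means were 442.3 ± 70.1 CPM in WT and 403.5 ± 133 CPM in KO mice, where KO mouse 5 was at 187.8 CPM and KO mouse 1 at 540.1 CPM. The log2 fold change was 0.00 (95% confidence interval -0.11 to 0.12) with surrogate variables and -0.13 without them. The leading surrogate variable had a weight of 0.874 at KO mouse 5, and when that mouse was left out the log2 fold change was 0.07 (adjusted p = 0.834). *Homer2* was at 101.7 ± 6.57 CPM in WT and 100.9 ± 9.58 CPM in KO mice (-0.02, adjusted p = 0.948), and *Homer3* at 6.66 ± 0.555 and 6.73 ± 0.398 CPM (-0.04, adjusted p = 0.935). The exons of *Homer3* overlap those of *Ddx49* on the other strand over 25.4% of their length. The overlap with a gene on the other strand was 3.22% for *Shank1*, 4.94% for *Nrxn2* and 1.58% for *Lrrtm2*, and how reads in these stretches were counted is not given in the sources used here.

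Among the adhesion genes, *Lrrtm2* to *Lrrtm4*, which share the neurexin-binding role of *Lrrtm1*, did not pass the test, and whether their changes differed from that of *Lrrtm1* was not tested. *Lrrtm4* was at 37.4 ± 3.01 CPM in WT and 40.1 ± 3.11 CPM in KO mice (log2 fold change 0.12, adjusted p = 0.545). *Lrrtm2* was at 111.5 ± 9.58 and 104.8 ± 8.34 CPM (-0.03, adjusted p = 0.914), and *Lrrtm3* at 71.6 ± 6.504 and 69.9 ± 7.88 CPM (-0.01, adjusted p = 0.973). The neuroligins are the postsynaptic partners of neurexins, *Nlgn1* at excitatory and *Nlgn2* at inhibitory synapses and *Nlgn3* at both. Their log2 fold changes ran from -0.05 (*Nlgn3*, adjusted p = 0.746) to 0.06 (*Nlgn1*, adjusted p = 0.700), with *Nlgn2* at 0.05 (adjusted p = 0.693). *Nlgn1* was at 89.8 ± 3.43 CPM in WT and 94.0 ± 3.80 CPM in KO mice, *Nlgn2* at 282.3 ± 19.9 and 296.6 ± 13.3 CPM, and *Nlgn3* at 123.0 ± 8.14 and 122.9 ± 5.08 CPM. *Nrxn2* was at 454.1 ± 31.8 CPM in WT and 495.4 ± 17.1 CPM in KO mice (0.11, adjusted p = 0.301), and *Nrxn3* at 257.5 ± 13.5 and 253.1 ± 18.1 CPM (-0.02, adjusted p = 0.894).

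*Camk2a* and *Camk2b*, the members that encode subunits of CaMKII, were below an unadjusted p of 0.05 and missed the adjusted threshold. CaMKII is the calcium-dependent kinase of synaptic potentiation, and its other subunit genes are not members. *Camk2a* in WT mice 1 to 5 was at 3900.1, 3503, 3818, 3894 and 3596 CPM. KO mice 1 to 5 had 4178, 3755, 4053, 4082 and 4298 CPM. Of the KO mice, 4 were above all WT mice and KO mouse 2 lay within their range. With 3742 ± 182 CPM in WT and 4073 ± 202 CPM in KO mice, the log2 fold change was 0.12 (SE 0.03, 95% confidence interval 0.06 to 0.18, edgeR adjusted p = 0.0684), the next smallest adjusted p of the members after the called genes. *Camk2a* was called by DESeq2 (adjusted p = 0.0214), by edgeR without KO mouse 2 (0.0106) and by edgeR without WT mouse 2 (0.0211), but its adjusted p was 0.499 without surrogate variables.

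*Camk2b*, the actin-binding subunit, was at 779.4, 750.3, 797.7, 773.8 and 786.6 CPM in WT mice 1 to 5. It was at 827.1, 765.0, 823.1, 811.4 and 918.9 CPM in KO mice 1 to 5. KO mouse 2 was again within the WT range and the other KO mice were above it, and the log2 fold change was 0.07 (adjusted p = 0.376). The ratio of *Camk2a* to *Camk2b* counts was 4.92 ± 0.149 in KO and 4.81 ± 0.203 in WT mice. This log2 ratio differed by 0.03 (two-sided exact permutation test, p = 0.341, and 0.631 after adjustment over the 3 ratios tested, n = 5 each).

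Guanine nucleotide exchange factors of small GTPases drive actin assembly in the spine, and kalirin and Trio are closely related members of this class. *Kalrn* was at 812.8, 768.4, 738.7, 781.4 and 716.8 CPM in WT mice 1 to 5. The KO mice, in the same order, were at 793.2, 698.8, 787.3, 765.8 and 812.0 CPM. The groups overlapped over most of their range, and the log2 fold change was 0.03 (adjusted p = 0.801). *Trio* was at 239.6, 241.2, 252.0, 255.2 and 236.4 CPM in WT mice 1 to 5. For KO mice 1 to 5 the values were 260.6, 257.7, 268.0, 253.9 and 211.3 CPM. KO mouse 5 was the lowest of all mice for *Trio*, the other KO mice lay near or above the highest WT mouse, and the log2 fold change was 0.06 (adjusted p = 0.581). The *Kalrn* to *Trio* ratio was 3.11 ± 0.430 in KO and 3.12 ± 0.177 in WT mice, a log2 difference of -0.01 (exact permutation test, p = 0.889, adjusted p = 0.889, n = 5 each).

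Neurabin (*Ppp1r9a*) and spinophilin (*Ppp1r9b*) bind actin and bring protein phosphatase 1 to the spine. *Ppp1r9a* was at 443.5, 429.9, 445.8, 442.3 and 439.5 CPM in WT mice 1 to 5, with the smallest coefficient of variation of the members in WT mice, 1.41%. In KO mice 1 to 5 it was at 461.1, 405.2, 475.2, 467.1 and 469.5 CPM. KO mouse 2 was below every WT mouse and the other KO mice were above every one (log2 fold change 0.06, adjusted p = 0.554). *Ppp1r9b* was at 1058, 908.7, 1010.0, 1019 and 981.6 CPM in WT mice 1 to 5. In KO mice 1 to 5 it was at 1115, 1131, 1101, 1048 and 988.9 CPM. The groups overlapped through KO mice 4 and 5, and the log2 fold change was 0.11 (SE 0.04, adjusted p = 0.226). The ratio of *Ppp1r9a* to *Ppp1r9b* was 0.425 ± 0.0434 in KO and 0.443 ± 0.0198 in WT mice, a log2 difference of -0.07 (exact permutation test, p = 0.421, adjusted p = 0.631, n = 5 each).

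*Synpo*, encoding synaptopodin of the spine apparatus, was at 267.1 ± 23.98 CPM in WT and 279.0 ± 31.3 CPM in KO mice. Its log2 fold change was 0.12 (SE 0.03, adjusted p = 0.132) with surrogate variables and 0.06 (adjusted p = 0.888) without them, and it was called by DESeq2 (adjusted p = 0.0495) and by edgeR without KO mouse 2 (0.0430). *Dbn1*, encoding the actin side-binding protein drebrin, was at 209.1 ± 8.57 CPM in WT and 220.3 ± 5.09 CPM in KO mice (0.07, adjusted p = 0.510).

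**Figure D4:**
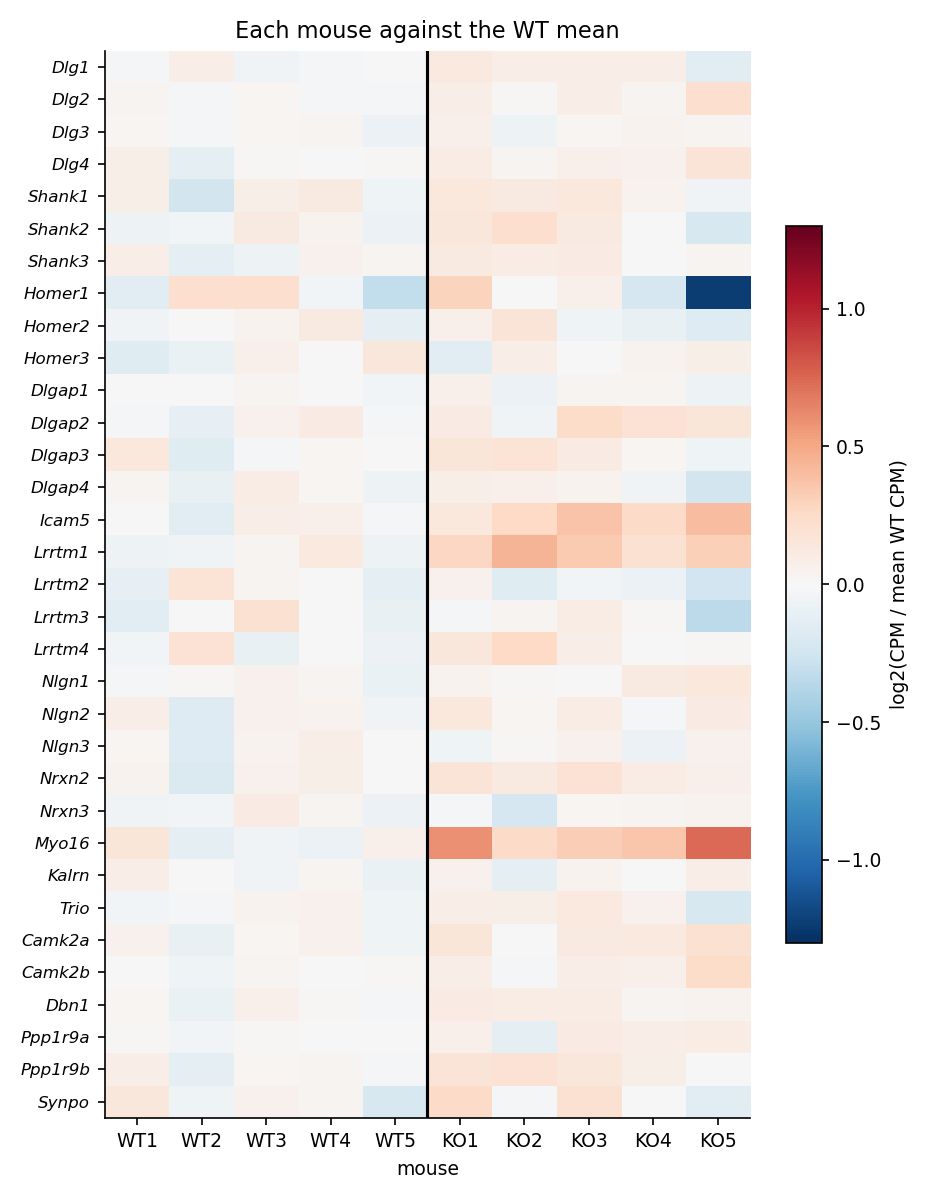
Level of each mouse (columns, WT then KO) over the WT mean of each of the 33 genes (vertical axis, grouped by family), as the log2 ratio of CPM (colour). The KO columns of *Icam5*, *Lrrtm1* and *Myo16* are above 0 throughout, and *Homer1* in KO mouse 5 (187.8 CPM against a WT mean of 442.3 CPM) is the strongest negative deviation.

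Of the 33 genes, 27 (81.8%) had a log2 fold change above 0, where 48.1% of all tested genes did. The median over the members was 0.07, beside -0.0044 over all genes. An unadjusted p under 0.05 was found for 12 of 33 members (36.4%), against 10.6% of all tested genes, and all 12 were higher in KO, against 5.51% of all genes. Besides the called genes these were *Dlg1*, *Dlg2*, *Shank2*, *Dlgap2*, *Nrxn2*, *Camk2a*, *Camk2b*, *Ppp1r9b* and *Synpo*. Without surrogate variables, 8 of 33 members (24.2%) were below 0.05, against 8.02% of all genes. The count was 5 (15.2%, against 9.09% of all genes) without WT mouse 5, 7 (21.2%, against 9.46%) without KO mouse 1 and 6 (18.2%, against 9.66%) with limma. These shares were not compared at matched expression, and members were more highly expressed than most genes, with a median WT level of 267.1 CPM against 24.9 CPM and a median SE of 0.04 against 0.07. The shares also include *Icam5* and *Myo16*, singled out with earlier results known. Summed over all 33 genes, levels were 14680.0 to 15678 CPM in KO and 13666 to 14761 CPM in WT mice, and the groups overlapped because KO mouse 2 lay below WT mice 1, 3 and 4.

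Expression per length differed widely among the members. Levels in WT mice, divided by exon length, ran from 501.3 ± 24.4 CPM per kb for *Camk2a* to 1.94 ± 0.16 CPM per kb for *Homer3*. *Ppp1r9b* (195.8 ± 10.9 CPM per kb), *Dlgap3* (96.0 ± 6.95 CPM per kb) and *Camk2b* (85.2 ± 1.93 CPM per kb) followed *Camk2a*. *Icam5* was sixth at 64.0 ± 3.89 CPM per kb, level with *Dlg4*, and *Lrrtm1* was at 16.6 ± 0.98 CPM per kb. *Myo16*, with the largest fold change, was next to last at 5.20 ± 0.41 CPM per kb. In KO mice the means of *Icam5*, *Lrrtm1* and *Myo16* were 78.2, 20.6 and 7.17 CPM per kb. Of the 32 pairs of neighbours in this order, 22 had overlapping WT ranges, among them *Dlgap3* and *Camk2b*, and *Dlg4* and *Icam5*.

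**Figure D5:**
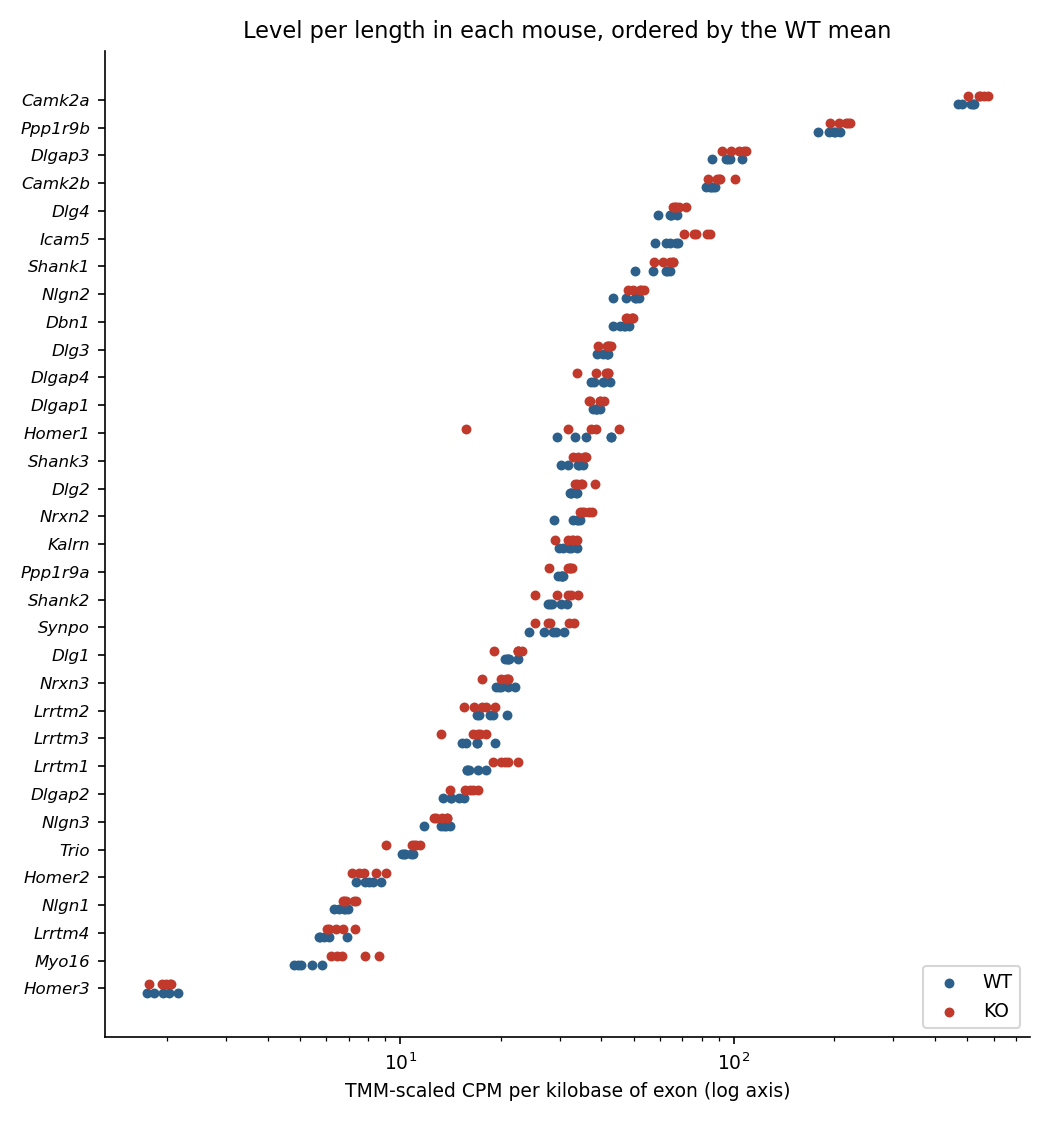
Level of each member per kb of exon (horizontal axis, CPM per kb on a log scale) in each WT (blue) and KO (red) mouse, ordered by the WT mean. *Camk2a*, with a WT mean of 501.3 CPM per kb, is at the top and *Homer3*, with 1.94 CPM per kb, at the bottom.

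Other genes of the same compartments were examined in 4 lists. With 0.844% of all tested genes called by edgeR, 0 calls in a list of such size says little about it. Of 35 further genes for postsynaptic scaffold and signalling proteins, edgeR called 0, and 12 were below an unadjusted p of 0.05, all higher in KO, beside the shares of 10.6% and 5.51% over all tested genes. DESeq2 called 1. The 12 became 4 without KO mouse 3, 3 without KO mouse 4, 7 without KO mouse 5, 6 without WT mouse 3, 4 without WT mouse 5, 5 without surrogate variables and 3 with limma. The median log2 fold change of this list was 0.05, and 25 of its 35 genes were above 0. Of 40 further regulators of spine actin, 0 were called by edgeR and 0 by DESeq2, and 8 were below 0.05 (7 higher and 1 lower in KO), against the same 10.6% of all genes. The 8 became 5 without KO mouse 1 or WT mouse 3, 2 without KO mouse 4, 3 without WT mouse 5 and 2 with limma. The last list held 20 genes for partners and family relatives of ICAM5 and MYO16, 5 of them shared with the actin list. Of these 20, 0 were called by either tool, and 5 were below 0.05 (4 higher and 1 lower), against 10.6% of all genes. The 5 became 3 without KO mouse 1, 3 or 5, 1 without KO mouse 4 and 2 without WT mouse 5. Most of the higher ones were already counted in the actin list, so the count of this list is not separate from that one. The lower one, an ICAM relative, was at only 2.08 ± 0.496 CPM in WT and 1.61 ± 0.840 CPM in KO mice.

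Of 44 tested further synaptic adhesion genes, edgeR called 1, *Mdga1*, where it called 0.844% of all tested genes. Below an unadjusted p of 0.05 were 7 (6 higher and 1 lower), against 10.6% of all genes. Without surrogate variables there were 4, against 8.02% of all genes. DESeq2 called 2 of this list, where it called 233 of all 14344 genes. These were *Mdga1* and, named after its values were seen, *Cbln4*, which encodes a secreted synaptic organizer (log2 fold change 0.29, adjusted p = 0.027). *Mdga1* encodes a membrane protein that binds neuroligin 2 and blocks its contact with neurexin. It rose from 20.5 ± 2.21 CPM in WT to 27.5 ± 5.56 CPM in KO mice (log2 fold change 0.41, SE 0.07, edgeR adjusted p = 0.0068). Levels of *Mdga1* overlapped between the genotypes, and its adjusted p was 0.0249 without KO mouse 3, 0.0677 without WT mouse 5 and 0.339 without surrogate variables.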

How the data were processed

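Deposited values are counts per gene, not normalized. The authors aligned reads with STAR (2.7.1a) to mm10, discarded multi-mapped and secondary alignments, and ran HTSeq (0.9.1, intersection-strict, exons) on protein-coding genes of Gencode M21. The strand setting is not given in the sources used here. Differential expression was tested with edgeR (4.0.16, R 4.3.3): TMM, its filter on low counts, the quasi-likelihood test, Benjamini-Hochberg adjustment over 14344 genes and a threshold of 0.05. Genotype was fitted together with 3 surrogate variables, estimated by sva (3.50.0) on log2(CPM + 1). Both DESeq2 (1.42.0) and limma (3.58.1) were alternatives. Ratios were compared by exact permutation tests in scipy (1.17.1), whose smallest two-sided p at 5 against 5 mice is 0.00794. No pair of libraries agreed within sampling noise. Scripts were tested on simulated counts. The reads carry no molecular identifiers, so the limit of 3 counts covers counting error only.

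All 33 members were named, with values per mouse for called, non-overlapping and ratio genes. From the other lists, genes past the threshold in edgeR with all mice and 3 surrogate variables were named, and *Cbln4*, called by DESeq2 alone, was added after its values were seen. Another gene called by DESeq2 is not reported here. Members and lists were chosen with earlier results of these data known. Positions come from Gencode M21 (GRCm38).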

Additional observations from a re-analysis of the deposited data

Results flagged for a closer look

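In 5 of 72 groups of 5 mice tested, 1 mouse lay farther from the others than Dixon's 95% limit for 5 samples allows, and chance alone marks about 1 in 20 groups. Each genotype was tested separately for each of the 33 genes and the ratios. *Dlg1* was at 205.4 CPM in KO mouse 5, with the other KO mice at 241.4 to 248.6 CPM. In WT mouse 2 the same gene was at 241.5 CPM, with the other WT mice at 221.1 to 226.5 CPM. *Nrxn2* was at 399.1 CPM in WT mouse 2, below the 455.1 to 477.4 CPM of the other WT mice. *Trio* was at 211.3 CPM in KO mouse 5, below the 253.9 to 268.0 CPM of the other KO mice. *Ppp1r9a* was at 405.2 CPM in KO mouse 2, below the 461.1 to 475.2 CPM of the other KO mice.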

How the results depend on the processing

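Of the 33 members, 3 were called. *Icam5*, *Lrrtm1* and *Myo16* had log2 fold changes above 0 under every alternative run, and their calls remained with 0, 1 or 2 surrogate variables, RIN as a covariate, DESeq2's size factors and no filter on low counts. The number of members called was 5 with DESeq2, 0 with limma, 0 in the 6 mice with a RIN of 9.5 or above, and 1 with the striatal marker score (*Lrrtm1*). Fits with RIN, the striatal score or the block, and the fit to mice of high RIN, held no surrogate variables. Their differences from the reported fit thus combine both changes. Replicate numbers join different mice, and correlations between same-numbered mice ran from -0.106 to 0.173, so they were not taken as pairs; 4 of 10 mice correlated best with their own number. With the replicate number as a block, 1 member was called (*Myo16*, adjusted p = 0.0190), and *Icam5* had a log2 fold change of 0.29 (adjusted p = 0.0585). Fits that each left out 1 mouse gave 1 to 5 called members, with 5 without KO mouse 2 and 1 without WT mouse 3 or 5. *Icam5* was 0.18 to 0.27 in these fits, and 0.29 (striatal score), 0.23 (limma) and 0.27 (high RIN) where its call was lost. *Myo16* lost its call at 0.44 (striatal score), 0.43 (limma) and 0.37 (high RIN). *Lrrtm1* lost its call with the block (0.31, adjusted p = 0.0860), limma (0.26, adjusted p = 0.0965) and in mice of high RIN (0.36, adjusted p = 0.138). The cause was not tested. The count of genes called overall was 8 with limma, 1 in mice of high RIN, 15 with the striatal score, 24 with the block, 30 without surrogate variables and 233 with DESeq2, and 39 to 248 when leaving out a mouse.

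In the list of further postsynaptic genes, 1 was called with RIN as a covariate and 1 with DESeq2, and 0 to 1 when leaving out a mouse. Calls numbered 0 to 2 for actin regulators, 0 to 1 for partners and relatives and 1 to 2 for adhesion genes when leaving out a mouse. For adhesion genes they were 2 with DESeq2 and 0 without surrogate variables, with RIN, the striatal score, the block or limma, or in mice of high RIN. Of the 30 uncalled members, 9 changed sign in at least 1 alternative. *Homer1* was -0.13 without surrogate variables, and -0.15 with RIN and -0.20 with the block, which held none either. *Homer2* was 0.03 with 1 or 2 surrogate variables (0.0288 and 0.0291), 0.0403 with the striatal score and 0.11 in mice of high RIN. *Homer3* was 0.0153, 0.0143, 0.0165 and 0.0231 without surrogate variables, with RIN, with the block and in mice of high RIN, and *Dlgap4* was -0.0136, -0.0140 and -0.0164 under the same settings apart from the last. *Lrrtm3* was 0.0227 and 0.0207 with 1 and 2 surrogate variables, 0.00899 with the striatal score and 0.0848 in mice of high RIN. *Nlgn3* was 0.00182, 0.00127 and 0.00944 with the striatal score, with the block and in mice of high RIN, where *Kalrn* was -0.0235. Leaving out a mouse gave ranges across 0 for *Homer1* (-0.0841 to 0.0988), *Homer2* (-0.0454 to 0.0272), *Homer3* (-0.0892 to 0.0037), *Dlgap4* (-0.0293 to 0.0223), *Lrrtm2* (-0.0546 to 0.0044), *Lrrtm3* (-0.0926 to 0.0695), *Nrxn3* (-0.0855 to 0.0124), *Kalrn* (-0.0047 to 0.0632) and the log2 *Kalrn* to *Trio* ratio (-0.0918 to 0.0339). *Homer3* had as few as 180 counts in a library, so counting error bears more on its differences than on those of the other members.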
